A study of Canis lupus familiaris with 15 samples.

Results

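CD40, CD40LG, BIRC3 and LTB were followed as members of the CD40 and NF-kB survival axis on 15 arrays of canine lymphoma and skin. Probes were assigned to a gene by their RefSeq accession, but the genes themselves were chosen with earlier results of these data known. The 4 genes are among 1357 that could be given a symbol, and their 8 probes, 2 per gene, are among 43603 on the array. The probe with the higher mean gives each gene's value, and all 4 of these probes were well above background on 15 of 15 arrays. Each value is a log2 relative signal, the log2 processed signal after subtraction of the array's own 75th percentile, so a step of 1 is a factor of 2 and 0 is already a bright probe.

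The samples came from 5 dogs, each sample on a 1-colour Agilent array of its own. MalcolmX gave an aspirate of the resistant tumour after metformin, a diabetes drug, in addition to a tumour biopsy and a skin biopsy. Thai gave the only biopsy labelled drug sensitive, whose title calls it naive. The biopsies labelled drug resistant came from MalcolmX, Jake, Rosco and Dog Y (n = 4), and other labels of the Rosco and Dog Y biopsies place them before treatment. Rosco also gave a needle aspirate after chemotherapy had failed and before metformin, 1 in remission after metformin, 3 at relapse after metformin, 1 from a tumour called the second original resistant one, and tumour taken after death. Skin biopsies of MalcolmX and Rosco are the control tissue (n = 2). The titles of the relapse aspirates read no remission. Age, breed and lymphoma subtype are not given in the sources used here. The aspirates from Rosco measure spread within 1 dog, and a needle aspirate draws loose cells where a biopsy takes tissue.

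CD40 is a receptor of the TNF receptor superfamily on B cells and other antigen-presenting cells. Its ligand, encoded by CD40LG, appears on activated helper T cells. Engaged CD40 recruits TRAF adaptors and turns on NF-kB transcription factors, which favour survival and proliferation of the B cell. BIRC3 encodes cIAP2, a ubiquitin ligase that restrains cell death and is itself switched on by NF-kB. LTB encodes lymphotoxin beta, the membrane anchor of a TNF family ligand that helps to organise lymphoid tissue. These roles are known mainly from human and mouse cells.

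On each array 66.7% to 75.9% of probes stood well above background, and no spot was saturated. The arrays lay on 4 slides read on 2 scan days. The Rosco biopsy and the second resistant aspirate stood apart from the other tumours. MS4A1, which encodes the B cell antigen CD20, was −7.16 in the Rosco biopsy and −6.74 in the second resistant aspirate, neither well above background. CA6, a secreted carbonic anhydrase of salivary glands, was 8.59 in the Rosco biopsy and 8.99 in the second resistant aspirate. The mean of the 6 named exocrine gland markers was 4.10 in the Rosco biopsy and 4.15 in the second aspirate, while the other 13 arrays reached no more than 0.67. In bulk tissue, fewer cells of a type and less RNA per cell cannot be told apart. CA6, like BCL6, CD4, CTLA4 and ICOS below, was named after its values had been seen.

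CD40 was high in most lymphoma samples and low where the gland marker was high. The 8 highest values were 5.10 in the Dog Y biopsy, 4.83 in the MalcolmX biopsy, 4.64 and 4.56 in the first and second relapse aspirates, 4.59 in the Thai biopsy, 4.53 in the MalcolmX aspirate after metformin, 4.48 in the Jake biopsy and 4.27 in the post-mortem tumour. The third relapse aspirate had 3.95. These 9 samples lay between 3.95 and 5.10, and no neighbours among them were farther apart than the SD of the relapse aspirates (0.38, n = 3). A gap of 1.68 separated them from MalcolmX skin at 2.27, the failed-chemotherapy aspirate at 2.07 and the remission aspirate at 1.51. The Rosco biopsy (−0.43), Rosco skin (−0.90) and the second resistant aspirate (−1.04) were lowest.

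CD40LG had another order. It was 3.22 in the remission aspirate and 3.17 in the failed-chemotherapy aspirate, and the next value, −0.84 in the second relapse aspirate, was 4.01 lower. The other relapse aspirates had −1.42 and −3.00, the Dog Y biopsy −1.95, the MalcolmX biopsy −2.40, the Thai biopsy −2.67 and the post-mortem tumour −2.88. The Jake biopsy (−4.43), the second resistant aspirate (−4.51), the MalcolmX aspirate after metformin (−4.85) and the Rosco biopsy (−4.91) lay close above skin of Rosco (−5.52) and of MalcolmX (−5.67). The relapse aspirates differed among themselves by an SD of 1.12 (n = 3), which is wider than most gaps further down the order. Thus the ligand was highest in a pair of aspirates in which the receptor was among the lower values.

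BIRC3 was between 1.55 and 2.62 in 10 samples. The highest was the Jake biopsy at 2.62, followed by the third relapse aspirate at 2.37, the Dog Y biopsy at 2.30, the second relapse aspirate at 2.23, the post-mortem tumour at 2.13, the Thai biopsy at 2.09 and the first relapse aspirate at 2.02. The failed-chemotherapy aspirate (1.58), the remission aspirate (1.57) and the MalcolmX biopsy (1.55) differed by less than the SD of the relapse aspirates, 0.18 (n = 3). Below them came the MalcolmX aspirate after metformin at 0.50, the Rosco biopsy at −0.45 and the second resistant aspirate at −0.96. Skin was lowest, with −1.46 in MalcolmX and −3.75 in Rosco.

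LTB, the lymphotoxin anchor, spanned 8.84 between its highest and lowest array. It was 6.18 in the failed-chemotherapy aspirate, 6.17 in the Dog Y biopsy, 6.09 in the Jake biopsy, 5.88 in the remission aspirate, 5.52 in the MalcolmX biopsy and 5.24 in the MalcolmX aspirate after metformin. The relapse aspirates followed at 4.94, 4.70 and 4.67, then the Thai biopsy at 4.47, the post-mortem tumour at 4.13 and MalcolmX skin at 3.11. The next sample was 5.63 lower. The Rosco biopsy (−2.53), the second resistant aspirate (−2.57) and Rosco skin (−2.65) could not be separated by the SD of the relapse aspirates (0.15, n = 3).

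**Figure D1:**
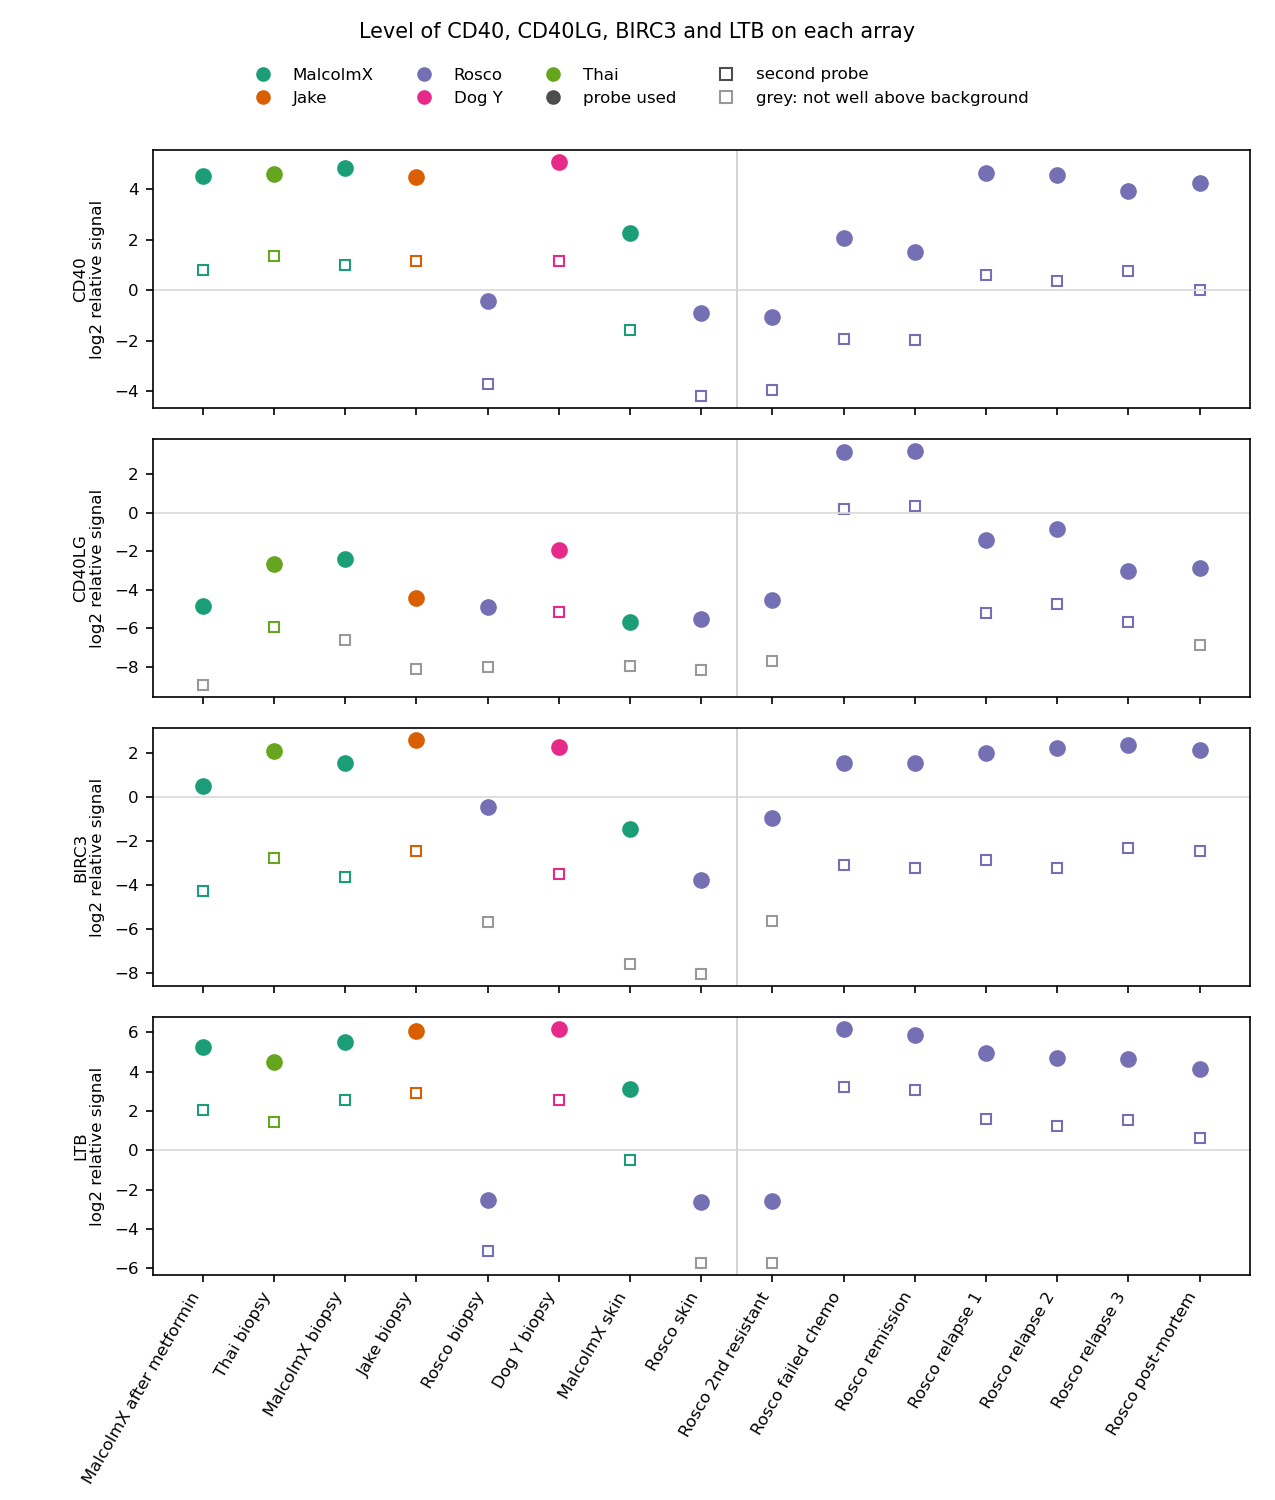
Log2 relative signal of CD40, CD40LG, BIRC3 and LTB on each of the 15 arrays, with filled circles for the probe used and squares for the second probe (grey where not well above background). By the probe used, CD40 and LTB drop below 0 in the Rosco biopsy, the second resistant aspirate and Rosco skin, and CD40LG passes 3 in the remission and failed-chemotherapy aspirates and nowhere else.

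The second probe of each gene followed the first over the 15 arrays, with a Pearson r of 0.985 for CD40, 0.978 for CD40LG, 0.965 for BIRC3 and 0.996 for LTB. The arrays share dogs and slides, so these are descriptions. The second probes were dimmer and were well above background on 15 arrays for CD40, 7 for CD40LG, 11 for BIRC3 and 13 for LTB.

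Among the 4 genes, BIRC3, CD40 and LTB varied together, and the CD40 ligand varied apart from its receptor. Over 15 arrays r was 0.79 between CD40 and BIRC3, 0.85 between CD40 and LTB, 0.81 between BIRC3 and LTB, and 0.17 between CD40 and CD40LG. Without the Rosco biopsy and the second resistant aspirate (13 arrays) the same values were 0.79, 0.70, 0.87 and −0.06. CD40LG had an r of 0.52 with BIRC3 and 0.55 with LTB over 15 arrays, and 0.46 and 0.51 over 13. The 4 named B cell markers differed in how they went with CD40. Over 15 arrays r was 0.95 for MS4A1, 0.68 for DLA-DOB, −0.04 for CD38 and −0.60 for BCL6, which was well above background on 8 arrays, and over 13 arrays the same values were 0.91, 0.51, −0.42 and −0.81. The other members had an r with MS4A1 of 0.94 for LTB, 0.80 for BIRC3 and 0.32 for CD40LG over 15 arrays. For CD40LG and CD4, the coreceptor of helper T cells, r was 0.62 over 15 arrays and 0.66 over 13. Of the 15 arrays 9 are from Rosco, so the points are not independent.

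**Figure D2:**
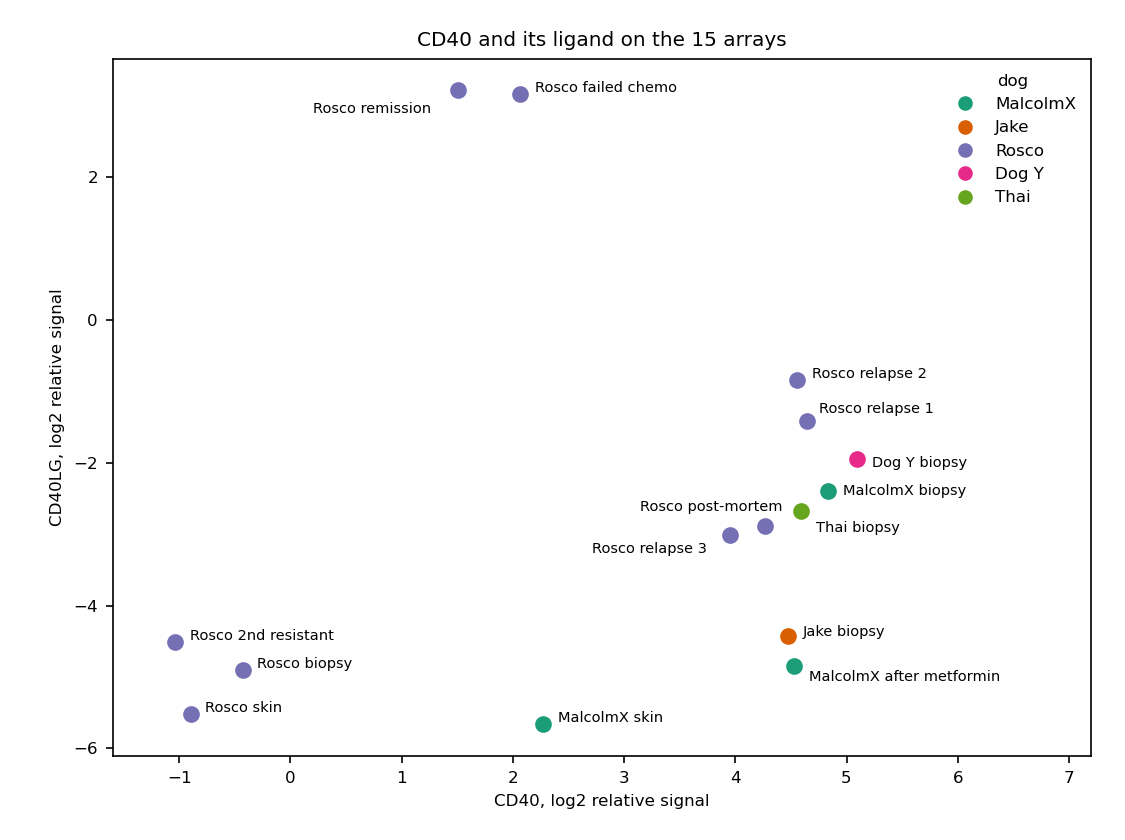
CD40 (x axis) against CD40LG (y axis), both as log2 relative signal, 1 labelled point per array and 1 colour per dog. The aspirates of remission and failed chemotherapy lie alone at the top with CD40 at 1.51 and 2.07, while 9 lymphoma samples have CD40 above 3.9 and CD40LG below 0.

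The named genes with the nearest pattern to each member, of 1055 searched over the 15 arrays, were picked for their likeness, so their r is a description. For CD40 they were ADORA2A, an adenosine receptor (r = 0.985), IL2RA, a chain of the interleukin-2 receptor (r = 0.978), and TLR1, a receptor for bacterial lipopeptides (r = 0.972). For CD40LG they were CD52, a lymphocyte surface glycoprotein (r = 0.962), the T cell costimulatory receptor gene CD28 (r = 0.962) and the interleukin-2 receptor chain IL2RB (r = 0.951). BIRC3 was closest to the lysosomal protease gene CTSS (r = 0.931), the interferon-induced OAS1 (r = 0.931) and the peptide-loading gene TAPBP (r = 0.930). LTB was closest to the peptide transporter gene TAP1 (r = 0.958), the immunoproteasome gene PSMB9 (r = 0.951) and the cytokine receptor chain IL2RG (r = 0.946).

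The comparison of resistant biopsies with skin asks what differs between tumour and control tissue. BIRC3 had the most separated values, and all 4 genes had a higher mean in the biopsies, but none passed the test. BIRC3 was 1.55, 2.62, −0.45 and 2.30 in the biopsies of MalcolmX, Jake, Rosco and Dog Y, against −1.46 and −3.75 in the skin of MalcolmX and Rosco. The groups did not overlap. The difference was 4.11 (SE 1.04), a 17.2-fold higher mean, with an adjusted p of 0.221 by limma. CD40LG, with −2.40, −4.43, −4.91 and −1.95 in biopsies against −5.67 and −5.52 in skin, did not overlap either. It differed by 2.17 (SE 0.93, adjusted p = 0.339 by limma), or by 0.96 with another background correction (normexp and quantile scaling). Its skin values lay near the dimmest signals well above background there (−5.95 and −5.94). By its second probe, not well above background in these samples, the Jake (−8.10) and Rosco (−8.02) biopsies were below MalcolmX skin (−7.955). Of all tested targets, 18.1% were higher without overlap, set beside 2 of 4 members by the probe used. In either direction 0.434% passed the test (104 of 23952), but only 2 of these targets were higher, 0.00835% of all tested, set beside 0 of 4 members.

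Markers of skin moved with this comparison. Of 9 named keratinocyte markers 5 fell and 0 rose, with a median difference of −9.07, and their mean was −4.67 to −2.46 in the biopsies against 2.84 and 5.95 in skin. Of 9 fibroblast and matrix markers none passed, with a median difference of −1.51 and 1 of 9 above 0. Their part in the members' differences was not tested.

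CD40 and LTB overlapped between tumour and skin, with 1 biopsy below the skin of MalcolmX. CD40 averaged 3.495 ± 2.63 in biopsies (SD, n = 4) and 0.69 ± 2.24 in skin (SD, n = 2), a difference of 2.81 (SE 1.78, adjusted p = 0.433 by limma). LTB averaged 3.81 ± 4.24 in biopsies (SD, n = 4) and 0.23 ± 4.07 in skin (SD, n = 2), a difference of 3.59 (SE 2.92, adjusted p = 0.513 by limma). The Rosco biopsy, at −0.43 for CD40 and −2.53 for LTB, is the low one. It is also the biopsy with high gland markers and MS4A1 below background, whose part in the result was not tested.

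With any array but the Rosco biopsy left out, CD40 and BIRC3 did not pass the threshold. By the probe used, the Rosco biopsy was the lowest resistant biopsy for every member. Leaving it out therefore raises the differences by itself and adds no separate support for them. Without it, CD40 and BIRC3 passed. CD40 then averaged 4.80 ± 0.31 in the other 3 biopsies (SD, n = 3), with a difference of 4.12 and an adjusted p of 0.0449 by limma. BIRC3 averaged 2.16 ± 0.55 in them (SD, n = 3), with a difference of 4.76 and an adjusted p of 0.0254 by limma. CD40LG (2.67, adjusted p = 0.0745) and LTB (5.70, adjusted p = 0.0689) missed it. In that fit 12.8% of targets passed, and 6.12% of all targets passed in the higher direction, so that 47.9% of the calls were higher, against 1.92% with the Rosco biopsy.

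Both dogs with the 2 tissues had higher values of every member in the tumour, though not always beyond the spread of the relapse aspirates. In MalcolmX the biopsy minus skin differences were 2.56 for CD40, 3.27 for CD40LG, 3.01 for BIRC3 and 2.42 for LTB, where 22.4% of targets were over 2-fold higher. In Rosco they were 0.47, 0.62, 3.30 and 0.13, where 12.8% were. There CD40LG and LTB differed by less than the SD of the relapse aspirates (1.12 and 0.15). BIRC3 was thus the member over 2-fold higher in both dogs, at 8.06-fold in MalcolmX and 9.82-fold in Rosco. With dog as a block on these dogs no member passed (lowest adjusted p = 0.205 by limma, for BIRC3). Within slide 1 and slide 2 CD40 differed by 0.78 and 5.73, CD40LG by 1.90 and 3.13, BIRC3 by 2.94 and 5.30, and LTB by 0.14 and 8.18, where slide 1 set biopsies of Jake, Rosco and Dog Y against MalcolmX skin and slide 2 the MalcolmX biopsy against Rosco skin, so neither compares tissues of the same dog.

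**Figure D3:**
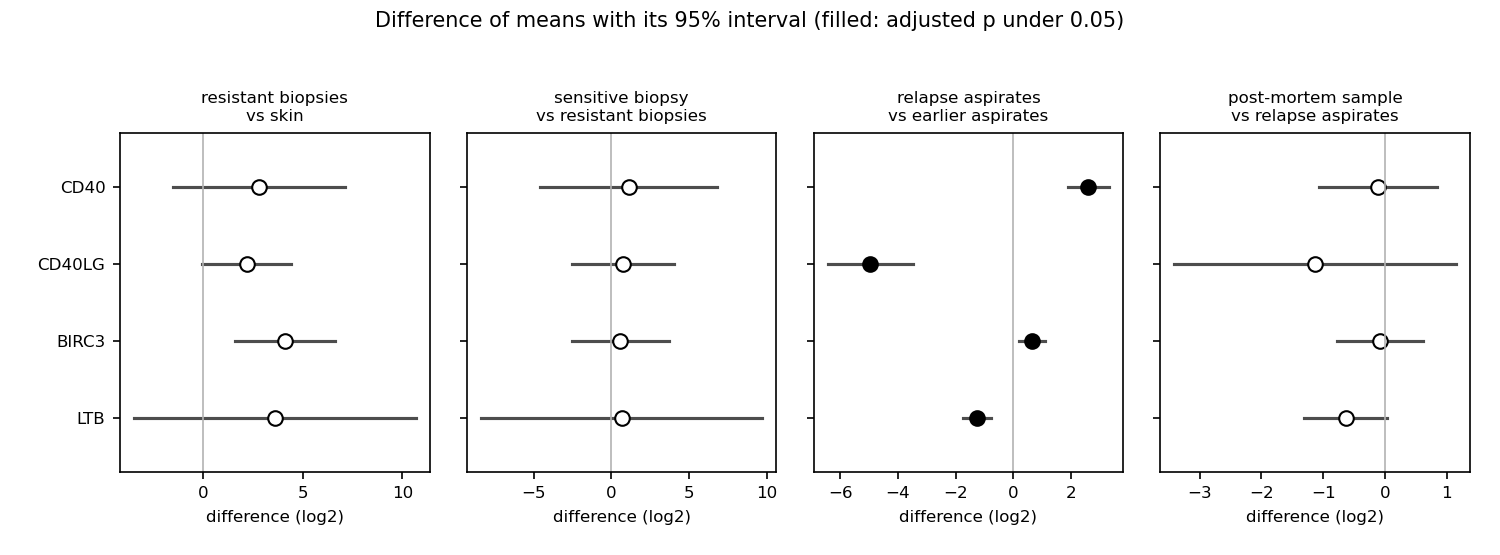
Difference in log2 relative signal for each of the 4 genes in 4 comparisons, with the 95% confidence interval of the limma fit, resistant biopsies minus skin, sensitive minus resistant biopsies, relapse minus earlier aspirates and post-mortem minus relapse. The axes differ in range, filled points have an adjusted p under 0.05, and all 4 genes are filled in the relapse comparison and in no other.

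Other genes of the pathway were few on the array under a symbol. Of 34 genes listed for CD40 signalling and the NF-kB core, 4 were named, TRAF5, NFKB1, BIRC2 and XIAP. None of them passed the test between biopsies and skin. TRAF5, an adaptor that binds the CD40 tail, was −3.37, −1.69, −6.29 and −2.48 in biopsies of MalcolmX, Jake, Rosco and Dog Y against −4.81 and −5.15 in skin of MalcolmX and Rosco. It was lowest in the Rosco biopsy, where it was not well above background. By the probe used, all 4 members were also lowest there among these biopsies, though CD40 and LTB were lower still in Rosco skin. NFKB1, which encodes the p50 subunit and its precursor, averaged 2.79 in biopsies and 1.98 in skin (adjusted p = 0.386 by limma). BIRC2, the close relative of BIRC3 that encodes cIAP1, averaged 1.57 in biopsies and 1.40 in skin (adjusted p = 0.789 by limma). Over the list the median difference was 0.49, against 0.25 over all targets.

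Of 33 TNF ligands and receptors 7 were named, and 0 of the 6 tested against skin passed. TNFRSF14, a receptor for the ligand LIGHT, averaged 0.30 in biopsies and −1.82 in skin (adjusted p = 0.344 by limma), with −1.85 in the Rosco biopsy and 0.92 to 1.14 in the other 3. TNFSF13, the B cell factor APRIL, went the other way within the group, at 3.97 in the Rosco biopsy and −1.11 to −0.17 in the other 3 biopsies. Of 27 named NF-kB targets 21 were tested and 0 passed, with a median difference of 1.02. Of 16 named apoptosis regulators 14 were tested and 0 passed, with a median of 0.56. Among the most strongly measured, BCL2 averaged 3.04 in biopsies and 2.97 in skin, MCL1 3.66 and 3.55, and ICAM1 1.85 and 1.76. These all code for proteins that NF-kB can raise or that block mitochondrial cell death.

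The sensitive biopsy was set against the resistant ones to ask whether drug response went with the axis. By the probe used, each member in Thai lay inside the range of the 4 resistant biopsies. Over all targets 20.4% were higher and 15.2% lower without overlap. The second CD40 probe lay above the range, at 1.38 in Thai against −3.71 to 1.17. CD40 was 4.59 in Thai against −0.43 to 5.10 in the resistant biopsies, CD40LG −2.67 against −4.91 to −1.95, BIRC3 2.09 against −0.45 to 2.62, and LTB 4.47 against −2.53 to 6.17. The differences were 1.097 for CD40 (95% confidence interval −4.58 to 6.77), 0.75 for CD40LG (−2.54 to 4.04), 0.58 for BIRC3 (−2.53 to 3.69) and 0.65 for LTB (−8.40 to 9.70), all with an adjusted p of 0.9997 by limma. Such intervals do not show that sensitive and resistant tumours are alike. Over all targets 0% passed (0 of 26372), with 787 at an unadjusted p under 0.05. Without the Rosco biopsy the differences were −0.21 for CD40, −0.071 for BIRC3 and −1.46 for LTB, so their signs rested on that biopsy. The sensitive array lies on another slide and scan day than the resistant ones, which cannot be told apart from drug response here.

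No gene of the pathway passed here either. None of the 4 core genes, 7 TNF family genes, 24 tested NF-kB targets and 15 tested apoptosis regulators passed. TNFSF10, the death ligand TRAIL, was 5.83 in Thai against 4.14 to 5.05 in the resistant biopsies, where 20.4% of targets were higher without overlap. FASLG, the Fas ligand of cytotoxic lymphocytes, was −1.91 in Thai against −7.17 to −1.66, the lowest being the Rosco biopsy, where it was not well above background. The T and NK cell list averaged −2.35 in Thai, against −6.08 to −4.36 in the resistant biopsies, while CD40LG did not stand outside their range.

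Relapse in Rosco brought the clearest differences. The 3 relapse aspirates were compared with the earlier aspirates, taken after failed chemotherapy and in remission, to follow the tumour of 1 dog. CD40 was higher at relapse, CD40LG and LTB were lower, and BIRC3 was slightly higher. By the probe used, all 4 members were past the threshold and without overlap. Over all targets 33.7% passed (8548 of 25381), 17.4% higher and 16.3% lower. Without overlap, 28.9% were higher and 31.4% lower. Of the targets that passed, 51.6% were higher, and 62.5% were when arrays were scaled to their medians instead.

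CD40 had 4.64, 4.56 and 3.95 in the relapse aspirates, against 2.07 after failed chemotherapy and 1.51 in remission. Every relapse value was above both earlier ones. The mean was 4.38 ± 0.38 at relapse (SD, n = 3) and 1.79 ± 0.39 earlier (SD, n = 2). The difference of 2.59 (SE 0.29) is 6.04-fold, with an adjusted p of 0.00186 by limma. It was 2.58 within slide 3, which held 1 array of each group, and 2.74 within slide 4 (adjusted p = 0.0104 by limma). The second CD40 probe differed by 2.55.

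CD40LG had −1.42, −0.84 and −3.00 in the relapse aspirates, against 3.17 after failed chemotherapy and 3.22 in remission. The lowest earlier value stood 4.01 above the highest relapse value. The mean was −1.76 ± 1.12 at relapse (SD, n = 3) and 3.19 ± 0.04 earlier (SD, n = 2). The difference of −4.95 (SE 0.61) is a 30.9-fold lower level, with an adjusted p of 0.0024 by limma. It ranked 95 from the most negative of 25381 targets. The second CD40LG probe differed by −5.47.

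LTB had 4.94, 4.70 and 4.67 at relapse, against 6.18 after failed chemotherapy and 5.88 in remission. It fell by 1.26 (SE 0.20), or 2.40-fold, with an adjusted p of 0.00532 by limma. The second LTB probe differed by −1.69. LTB kept its sign within slide 3 (−1.24) and slide 4 (−1.19), where the test was missed (adjusted p = 0.117 by limma).

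BIRC3 had 2.02, 2.23 and 2.37 at relapse, against 1.58 after failed chemotherapy and 1.57 in remission. Its difference of 0.63 (SE 0.19), 1.55-fold, had an adjusted p of 0.0441 by limma. That call was lost in 12 of the 15 alternatives that gave a test, among them leaving out relapse aspirate 1 (0.73, adjusted p = 0.0816), relapse aspirate 2 (0.62, 0.112), the failed-chemotherapy aspirate (0.64, 0.153) or the remission aspirate (0.63, 0.182), all by limma. The second BIRC3 probe differed by 0.35. By that probe the groups overlapped, with relapse aspirate 2 (−3.24) below the failed-chemotherapy (−3.10) and remission (−3.22) aspirates. When all 15 arrays shared 1 estimate of the spread, CD40LG still passed (adjusted p = 0.0362 by limma) and CD40 (0.461), LTB (0.871) and BIRC3 (0.799) did not.

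Markers of several other cell types differed between the same aspirates. Of the 14 named T and NK cell markers 13 were tested, 8 fell and 1 rose at relapse, with a median difference of −2.27 against −0.08 over all targets. The list mean was −4.09 to −3.53 in the relapse aspirates, against −1.50 and −1.35 earlier. CD8A, the coreceptor of cytotoxic T cells, was −3.10, −3.04 and −3.97 at relapse against 3.21 after failed chemotherapy and 2.89 in remission (adjusted p = 0.00024 by limma). KLRD1, an NK cell receptor, fell by 2.93 (adjusted p = 0.00113 by limma). CD28 fell by 5.34 (adjusted p = 0.000304 by limma). CD4 was −3.18, −2.72 and −2.66 at relapse against −2.99 and −2.11 earlier (adjusted p = 0.505 by limma). The T cell marker that rose was IL2RA, also among the genes closest to CD40, which was well above background in only 1 of the 2 earlier aspirates.

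MS4A1 rose with CD40, at 2.18, 2.33 and 1.78 in the relapse aspirates against 0.40 and 0.38 earlier (difference 1.70, adjusted p = 0.00278 by limma). Of the 4 named B cell markers 1 rose and 2 fell. CD38, found on plasma cells and on activated lymphocytes, fell by 4.62 (adjusted p = 0.000434 by limma), and DLA-DOB, a class II gene of B cells, was 1.39 at relapse and 1.42 earlier. Of 7 tested keratinocyte markers 5 fell and 0 rose, with a median difference of −1.04, and the list mean was −4.20 to −3.77 at relapse against −3.17 and −2.84 earlier. Of 9 fibroblast and matrix markers 3 fell and 1 rose, with 1 of 9 above 0, and the list mean was 0.19 to 0.58 at relapse against 1.75 and 1.86 earlier. The part of a changed cell mix in the members' results was not tested.

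**Figure D4:**
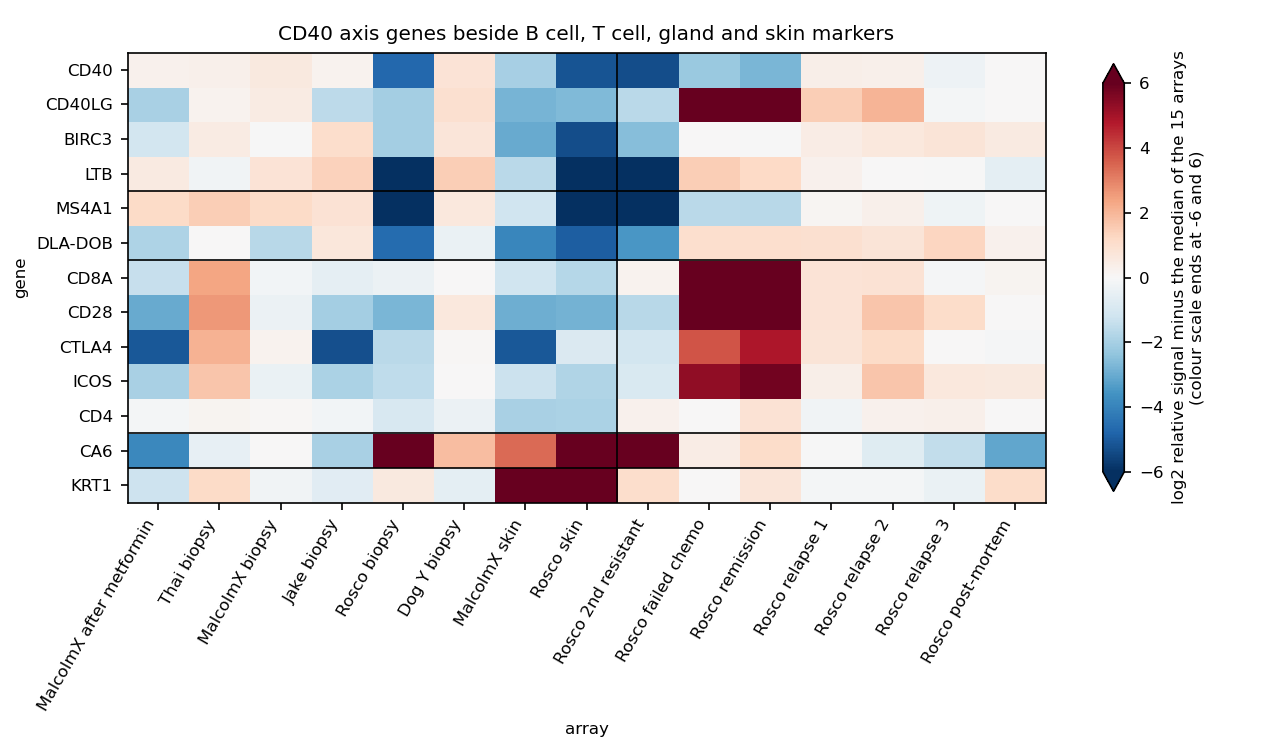
Log2 relative signal of the 4 genes and of B cell (MS4A1 and DLA-DOB), T cell, gland and skin markers on the 15 arrays. Values are the difference from each gene's median over the arrays (red higher, blue lower, colours ending at −6 and 6). The other named B cell markers, CD38 and BCL6, did not rise with CD40 (r = −0.04 and −0.60 over 15 arrays) and are not shown. CD40LG, CD8A, CD28, CTLA4 and ICOS are red in the aspirates taken after failed chemotherapy and in remission. CD4, also shown, did not pass the test between relapse and earlier aspirates. The other named T and NK cell markers are not shown, among them IL2RA, which rose at relapse. CD40, LTB and MS4A1 are blue in the Rosco biopsy and the second resistant aspirate, where CA6 is red.

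Among genes of the pathway, the shares past the threshold are set beside the 17.4% of all targets that were higher and the 16.3% that were lower at relapse. Of the 4 core genes 1 fell and 0 rose, too few to set apart from those shares. TRAF5 was −2.22, −2.58 and −2.01 at relapse against −1.21 and −1.18 earlier, and it fell by 1.08 (adjusted p = 0.0135 by limma). NFKB1 was 3.60, 3.57 and 3.65 at relapse against 3.38 and 3.42 earlier (adjusted p = 0.374 by limma). BIRC2 averaged 1.50 at relapse and 1.67 earlier, and XIAP, another inhibitor of apoptosis, 0.35 and 0.78, neither past the threshold.

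Of the 7 TNF ligands and receptors 1 fell and 0 rose. FASLG fell by 1.25 (adjusted p = 0.0121 by limma). TNF was −2.25 at relapse and −1.98 earlier, and TNFRSF14 was 0.88 in both. Of 24 tested NF-kB targets 2 rose and 7 fell, with a median of −0.38 against −0.08 over all targets. BCL2, the founding inhibitor of mitochondrial apoptosis, was 1.90, 2.41 and 2.13 at relapse against 4.25 and 5.04 earlier, and fell by 2.50 (adjusted p = 0.00212 by limma). Of 16 apoptosis regulators 3 rose and 5 fell. MCL1, a short-lived relative of BCL2, fell by 0.74 (adjusted p = 0.024 by limma), and CYCS, which encodes cytochrome c, differed by 0.63 without passing.

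**Figure D5:**
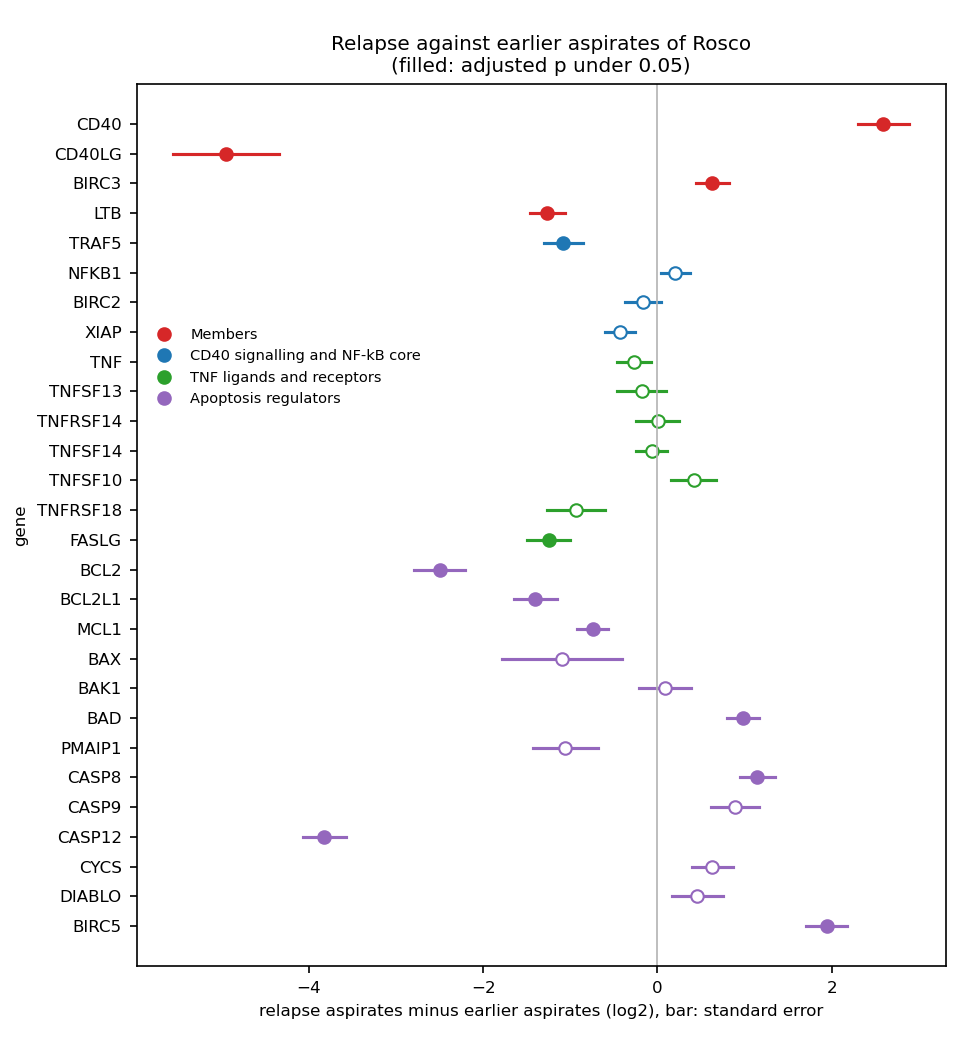
Difference in log2 relative signal between the 3 relapse aspirates and the earlier pair of aspirates for the 4 genes and the named genes of the CD40 and NF-kB core, TNF family and apoptosis lists, with bars of 1 standard error and filled points where the adjusted p of limma is under 0.05. CD40LG at −4.95 and CD40 at 2.59 lie on opposite sides of 0, and BCL2 at −2.50 is among the filled points below 0.

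The post-mortem tumour of Rosco was compared with the relapse aspirates to see whether the axis shifted by the time of death. No member passed, but with 1 post-mortem array the spread comes from the relapse aspirates alone, and a missed test does not show that the levels were alike. By the probe used, CD40 was 4.27 after death against 3.95 to 4.64 at relapse, and CD40LG −2.88 against −3.00 to −0.84. BIRC3 was 2.13 against 2.02 to 2.37, so all of these lay within the relapse range. The second CD40 probe did not, at 0.02 after death against 0.38 to 0.78 at relapse. The second CD40LG probe, not well above background after death, was also lower, at −6.87 against −5.66 to −4.72. LTB was 4.13 after death against 4.67 to 4.94 at relapse, outside the range, as 29.3% of targets were on the lower side. The differences were −0.11 (SE 0.36) for CD40, −1.13 (SE 0.87) for CD40LG, −0.08 (SE 0.26) for BIRC3 and −0.64 (SE 0.25) for LTB. The adjusted p was 0.904, 0.564, 0.909 and 0.341 in that order, by limma. Over all targets 0% passed (0 of 27125), with 4129 at an unadjusted p under 0.05. The sign for CD40 and BIRC3 turned under quantile scaling (0.075 and 0.077), and the second BIRC3 probe gave 0.36. The T and NK cell list had a median difference of −0.41 and the fibroblast and matrix list one of 1.94, with 8 of 9 genes above 0.

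Metformin was followed in a pair of samples in each of 2 dogs, with no replicates and so no test. In MalcolmX the aspirate after metformin had CD40LG at −4.85, against −2.40 in the biopsy before it, a difference of −2.46 or 5.49-fold lower. BIRC3 was 0.50 after and 1.55 before, 2.07-fold lower. Its second probe was −4.25 after and −3.63 before, lower by less than 2-fold. The second CD40LG probe was not well above background in either sample. CD40 (4.53 after, 4.83 before) and LTB (5.24 after, 5.52 before) differed by less than 2-fold. Over all targets 9.06% differed by more than 2-fold, 7.58% of all being lower, against 2 of 4 members by the probe used. The pair also differs in the way of sampling, an aspirate against a biopsy, and the T and NK cell list averaged −5.76 after metformin and −4.36 before it, whose part was not tested.

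In Rosco the aspirate in remission after metformin and the one before it, after failed chemotherapy, were close. CD40 was 1.51 in remission and 2.07 before, CD40LG 3.22 and 3.17, BIRC3 1.57 and 1.58, and LTB 5.88 and 6.18. No member differed by 2-fold, where 4.52% of targets did. The T and NK cell list averaged −1.50 in remission and −1.35 before. Whether the dogs differed in CD40LG was not tested, with 1 pair from each.

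The second resistant aspirate of Rosco entered no test. CD40 (−1.04), BIRC3 (−0.96) and LTB (−2.57) were close to the Rosco biopsy (−0.43, −0.45 and −2.53), and CD40LG was −4.51 in the aspirate and −4.91 in the biopsy. TRAF5 was not well above background in either sample, at −7.09 in the aspirate and −6.29 in the biopsy, and TNFSF13 was high in both, at 3.82 in the aspirate and 3.97 in the biopsy. CD40 was low in the 2 tumour samples of Rosco that were rich in gland transcripts, and between 3.95 and 4.64 in the dog's relapse and post-mortem samples. It was also below that range in the dog's failed-chemotherapy (2.07) and remission (1.51) aspirates. Their gland marker means were −4.27 and −3.50, and their CD40 was above that of the 2 gland-rich samples. The part of gland content in the CD40 levels was not tested.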

How the data were processed

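Canine RNA of 15 samples was measured on 1-colour Agilent arrays. The authors took spot intensities from the scans with Agilent Feature Extraction 11.0.1.1, per the file headers, and this program subtracts background and corrects spatial trends within an array. The deposited series table holds the median spot intensity minus the local background median, equal to the scanner values within 0.01 in 678300 of 678300 cells. The other deposited columns used, per the file headers, are flags of 0 or 1 for signal well above background, saturation and outliers.

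From the log2 of the processed intensity that array's 75th percentile was subtracted, which was an intensity of 368 to 1240 over the arrays. Between 2 and 50 outlier spots per array were left out and spots of 1 probe averaged. RefSeq accessions gave a symbol to 2186 of 43603 probes (5.01%), and other probes kept their identifier, which made 36604 targets. A target entered a test when all arrays of 1 or both of the compared groups had it well above background. The test was limma 3.58.1 (R 4.3.3), two-sided, its p-values adjusted by Benjamini-Hochberg across every target in the test, with 0.05 as the limit. A group of 1 array takes its spread from the other group. Precision is limited by how many arrays there are, and since most replicates are single dogs or aspirates of 1 dog, p-values measure only the spread between these samples. The fits were also run on simulated data with independent noise and no dog or slide structure, which does not test how they behave on these samples.

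Genes named beside the members are all named genes of the CD40 and TNF lists, the 3 with the highest mean of each other list, and the 3 nearest in pattern to each member. CA6, BCL6, CD4, CTLA4 and ICOS fall outside this rule and were named after their values were seen. The members and lists were chosen with earlier results of these data known. In the dogs with both tissues, the deviations of biopsy and skin from their group means had a correlation of 0.30 over 23936 targets, and the pairing comes from the dog named in the labels. The array's own assembly was not used here, so no positions or probe sequences are given. Alternatives covered scaling, background correction, source table, dim-probe filter, probe choice, slide, dog, left-out arrays and 1 fit over all 15 arrays.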

Additional observations from a re-analysis of the deposited data

Results flagged for a closer look

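Among the 4 resistant biopsies, the Rosco biopsy lay far below the other 3 for CD40 (−0.43) and for LTB (−2.53). Its gap to the nearest biopsy was 0.888 of the whole range for CD40 and 0.925 for LTB, above the Dixon 95% critical value of 0.829 for 4 samples. BIRC3, at 0.653, and CD40LG, at 0.160, did not pass it. Chance alone passes this limit in about 5 of 100 groups, and 4 genes were examined, from the same biopsies. The same biopsy held CA6 at 8.59 and MS4A1 at −7.16.

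Of the 2 dogs followed across metformin, 1 had lower CD40LG afterwards and the other had nearly the same level. The MalcolmX aspirate after metformin minus the biopsy gave −2.46, and the Rosco remission aspirate minus the failed-chemotherapy aspirate gave 0.0508, near the 0.027 median of all targets. Each dog has 1 pair, the sampling differed, and the difference between the dogs was not tested.

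The second resistant aspirate of Rosco entered no comparison. CD40LG there was −4.51, above both skin arrays (−5.67 and −5.52), and BIRC3 was −0.96, also above both (−1.46 and −3.75). CD40 and LTB were not above both skin arrays.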

How the results depend on the processing

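Between resistant biopsies and skin, 104 targets passed. The count was 57 with normexp and quantile scaling, 66 with no filter, 6 with targets above background on every array, 32 with slide as a block, 652 with 1 fit over all arrays and 0 within slide 1 (1325 at an unadjusted p under 0.05), and 5 to 3126 with 1 array left out. With dog as a replicate block it was 0 (2111 at an unadjusted p under 0.05), and CD40, CD40LG, BIRC3 and LTB differed by 1.52, 1.94, 3.15 and 1.27, which changed no call on them. Within slide 2, CD40 differed by 5.73 and LTB by 8.18. With 1 array left out, CD40 ran from 1.23 to 4.39 and BIRC3 from 2.96 to 5.25, both past the threshold only without the Rosco biopsy. Between the sensitive and resistant biopsies 11 targets passed in the fit over all arrays, and with 1 array left out CD40 ran from −0.21 to 1.63, BIRC3 from −0.0712 to 0.95 and LTB from −1.46 to 1.44, below 0 without the Rosco biopsy.

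Between relapse and earlier aspirates, 8548 targets passed, with 3010 within slide 4, 679 in the fit over all arrays and 3773 to 9761 with 1 array left out, fewest without the remission aspirate. The median of all targets was −0.08, and 0.11 when arrays were scaled to their medians. CD40LG passed in each of the 15 alternatives that gave a test, with differences from −5.41 to −4.32. CD40 missed only in the fit over all arrays (2.59), and LTB there (−1.26) and within slide 4 (−1.19). BIRC3 missed with quantile scaling (0.50), normexp (0.49), the deposited table (0.64), no filter (0.63), the mean over probes (0.49), slide as a block (0.61), within slide 4 (0.73) and in the fit over all arrays (0.63), and ran from 0.55 to 0.73 with 1 array left out. The cause of the lost calls was not tested.

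Between the post-mortem tumour and relapse aspirates the count was 219 with normexp and quantile scaling, 14 with the mean over probes and 0 to 431 with 1 array left out. CD40 turned to 0.0747 with quantile scaling and 0.12 with normexp, and ran from −0.33 to 0.018 with 1 array left out. BIRC3 turned to 0.077 with quantile scaling, 0.0605 with normexp, 0.14 with the mean over probes and 0.11 with slide as a block, the value within slide 3, and ran from −0.17 to 0.0045 with 1 array left out. Of the second probes, those of CD40LG and BIRC3 were not well above background in skin of either dog, and that of LTB was not in Rosco skin. Signal over background limits them there.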

Other observations

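CYBB, the phagocyte oxidase, was 3.29, 3.21 and 3.63 in the relapse aspirates against 1.39 after failed chemotherapy and 1.28 in remission (difference 2.04, adjusted p = 0.00125 by limma). CD86, the costimulator of antigen-presenting cells, averaged 1.99 at relapse and 1.82 earlier, and TLR4, the endotoxin receptor, 0.35 and −0.27, neither past the threshold. Of 10 named monocyte, macrophage and dendritic cell markers 1 rose and 1 fell at relapse, where 17.4% of all targets rose and 16.3% fell, and 7 of 10 were above 0, with a median difference of 0.23 against −0.08 over all targets. VIM, the intermediate filament of mesenchymal cells and lymphocytes, fell by 2.64 at relapse (adjusted p = 0.000831 by limma). COL1A2, a chain of type I collagen, was 5.43 after death against 1.65 to 2.47 in the relapse aspirates, a difference that did not pass (adjusted p = 0.0583 by limma).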
